A study of Mus musculus with 20 samples.

Results

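Fetal mouse hearts exposed to the highest and the lowest TCDD dose of a dose series were compared: 4 arrays at 6 µg/kg against 4 arrays at 1.5 µg/kg, chosen by their titles as 8 of the 20 arrays. TCDD is a dioxin that binds the aryl hydrocarbon receptor (AhR). Pregnant mice received it in corn oil by oral gavage on gestation day 14.5, and fetal hearts were collected on day 17.5 (the dosing day of 1 array in the 1.5 µg/kg group is given unclearly and was not taken from its label). The 8 control arrays, from dams given corn oil alone, and the 4 arrays at 3 µg/kg are shown for reference. No group carries a named mutation or transgene, and nothing states how many hearts or litters went into an array, so each p below measures only the spread between these arrays. RNA was hybridised to Affymetrix MG-U74Av2 arrays, in which each probe set gives a linear signal. Of 12422 probe sets, 8097 were bright enough to be tested.

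AhR is a cytosolic transcription factor that moves to the nucleus once a ligand such as TCDD binds it. There it pairs with ARNT and binds short DNA motifs, the dioxin response elements, whose core is GCGTG. Among its textbook targets are the cytochrome P450 genes Cyp1a1 and Cyp1b1 and Ahrr, which encodes a repressor of the receptor. The fetal heart is known as a target of TCDD, with effects reported on cardiac muscle growth and on the extracellular matrix.

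The 250 bases before a start of Cyp1a1, Cyp1b1 and Ahrr are shown. They were taken because these targets were the ones whose mean signal was clearly above controls at 6 µg/kg. They are RefSeq sequence of assembly GRCm38.p6, read 5′ to 3′ on the gene's strand (chr9:57697363-57697612, plus strand; chr17:79715062-79715311, minus strand; chr13:74292332-74292581, minus strand). Capitals mark GCGTG or its reverse complement CACGC.
Cyp1a1: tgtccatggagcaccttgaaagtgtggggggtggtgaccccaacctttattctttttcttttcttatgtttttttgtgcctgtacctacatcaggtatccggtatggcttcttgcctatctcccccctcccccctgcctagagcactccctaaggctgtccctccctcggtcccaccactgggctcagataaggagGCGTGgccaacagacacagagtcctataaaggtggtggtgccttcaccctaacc
Cyp1b1: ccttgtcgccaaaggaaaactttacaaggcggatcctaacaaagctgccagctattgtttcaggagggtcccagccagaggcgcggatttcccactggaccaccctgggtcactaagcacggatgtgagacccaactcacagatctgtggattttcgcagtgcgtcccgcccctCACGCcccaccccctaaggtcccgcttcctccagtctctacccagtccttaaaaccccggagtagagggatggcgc
Ahrr: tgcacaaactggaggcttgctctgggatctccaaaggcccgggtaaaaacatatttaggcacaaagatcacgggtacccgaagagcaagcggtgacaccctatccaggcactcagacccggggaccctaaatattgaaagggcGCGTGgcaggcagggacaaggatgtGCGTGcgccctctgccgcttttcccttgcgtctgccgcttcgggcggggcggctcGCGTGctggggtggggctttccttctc
The Cyp1a1 window lies inside the gene span given below (57687928 to 57703824), so the start used for it is not the first base of that span. The Cyp1b1 and Ahrr windows adjoin their spans. The Cyp1a1 and Cyp1b1 windows each held the motif 1 time, with its first base 54 and 76 bases before the start used. The Ahrr window held it 3 times, at 107, 82 and 27 bases. Of all 32851 windows of this length in the table, 28.2% held it on either strand, so a match is a description and not a binding site.

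The induced AhR targets stood higher at 6 than at 1.5 µg/kg in mean signal, but none passed the test across all probe sets. Cyp1a1 (chromosome 9, 57687928 to 57703824), which oxidises dioxin-like and polycyclic compounds, gave signals of 93.6, 187.8, 205.2 and 410.8 at 1.5 µg/kg. At 6 µg/kg it gave 333.1, 456.4, 688.1 and 548.7. All but 1 of the 1.5 µg/kg arrays lay below every 6 µg/kg array, and array 4 lay above the lowest of them, so the groups overlapped. The means were 224 ± 134 and 507 ± 150 (SD, n = 4 here and below unless stated), beside 39.6 in controls (n = 8) and 275 ± 90.3 at 3 µg/kg. On the log2(signal + 32) scale, used for every difference below, 6 exceeded 1.5 µg/kg by 1.17 with a standard error of 0.33 (95% interval 0.50 to 1.84; limma adjusted p = 0.0919). Leaving out array 4 of 1.5 µg/kg gave 1.48 and an adjusted p of 0.045, the 1 setting of those tried that carried Cyp1a1 past the threshold of 0.05. A dimmer Cyp1a1 probe set gave 82.3 ± 24.3 and 115 ± 54.7, a difference of 0.30 (adjusted p = 0.679).

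Cyp1b1 (chromosome 17, 79706940 to 79715061), a relative of Cyp1a1 that also metabolises steroids, gave 185.8, 292.2, 254.0 and 307.0 at 1.5 µg/kg and 357.4, 505.5, 384.0 and 441.0 at 6 µg/kg. All 4 arrays of 6 µg/kg lay above all 4 of 1.5 µg/kg. The difference was 0.65 with a standard error of 0.19 (95% interval 0.25 to 1.04; adjusted p = 0.107), and under no alternative did it pass (adjusted p from 0.0592 to 1). Across all 8097 probe sets, such a separation was common: 291 (3.59%) were higher at 6 µg/kg on every array and 424 (5.24%) were lower on every array.

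Ahrr (chromosome 13, 74211118 to 74292331) was too dim for the filter and was compared separately. Its signals were 92.0, 68.1, 85.3 and 50.7 at 1.5 µg/kg and 148.5, 164.9, 110.7 and 130.7 at 6 µg/kg. The groups did not overlap, with means of 74.0 ± 18.5 and 139 ± 23.3. The two-sided exact permutation test gave p = 0.0286, the smallest that 70 splits of 8 arrays allow, and 0.114 after adjustment over the 4 genes tested this way. At 3 µg/kg Ahrr averaged 77.4 ± 19.7, and all 3 of these targets had a mean at 3 µg/kg nearer to 1.5 than to 6 µg/kg.

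**Figure D1:**
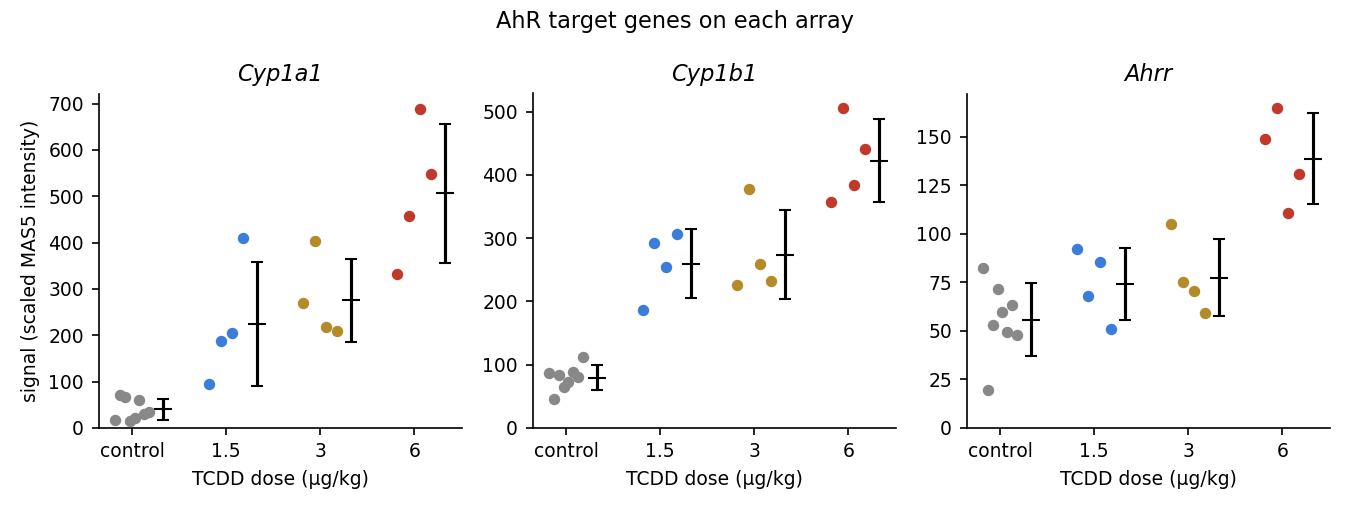
Scaled signal of Cyp1a1, Cyp1b1 and Ahrr on each of the 20 arrays (points) against the TCDD dose in µg/kg, with the group mean and SD as a dash and bar (n = 8 controls, 4 at each dose). At 6 µg/kg Cyp1b1 and Ahrr lay above all 1.5 µg/kg arrays, while the Cyp1a1 groups shared the range from 333.1 to 410.8.

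None of the other AhR targets passed its test. Cyp2s1, an extrahepatic P450, averaged 197 ± 29.9 at 1.5 µg/kg and 237 ± 50.9 at 6 µg/kg (0.22, adjusted p = 0.554). Nqo1, a quinone reductase, averaged 89.2 ± 21.7 and 108 ± 8.12 (0.22, adjusted p = 0.59), and Tiparp, an ADP-ribosyltransferase that feeds back on AhR, averaged 220 ± 109 and 240 ± 63.9 (0.18, adjusted p = 0.794). Aldh3a1 was at 0.16 and Gsta2 at 0.04, the latter at −0.03 after quantile normalization. Cyp1a2, Gsta1 and Xdh, all below the filter, had exact permutation p-values of 0.343, 0.657 and 0.971. All 7 listed targets that passed the filter had a positive difference, with a median of 0.22, where 49.4% of 6099 measured genes were positive and the median of all genes was −0.003. The 5 measured genes of the receptor complex and its partners were split, 3 higher and 2 lower, with a median of 0.07 that became −0.09 without the filter.

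Outside the AhR targets, 28 of 8097 probe sets passed the limma threshold (0.346%). Of these, 24 were lower at 6 than at 1.5 µg/kg (0.296%) and 4 were higher (0.0494%). At an unadjusted p under 0.05 there were 1262 (15.6%), of which 718 were lower (8.87%) and 544 higher (6.72%).

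**Figure D2:**
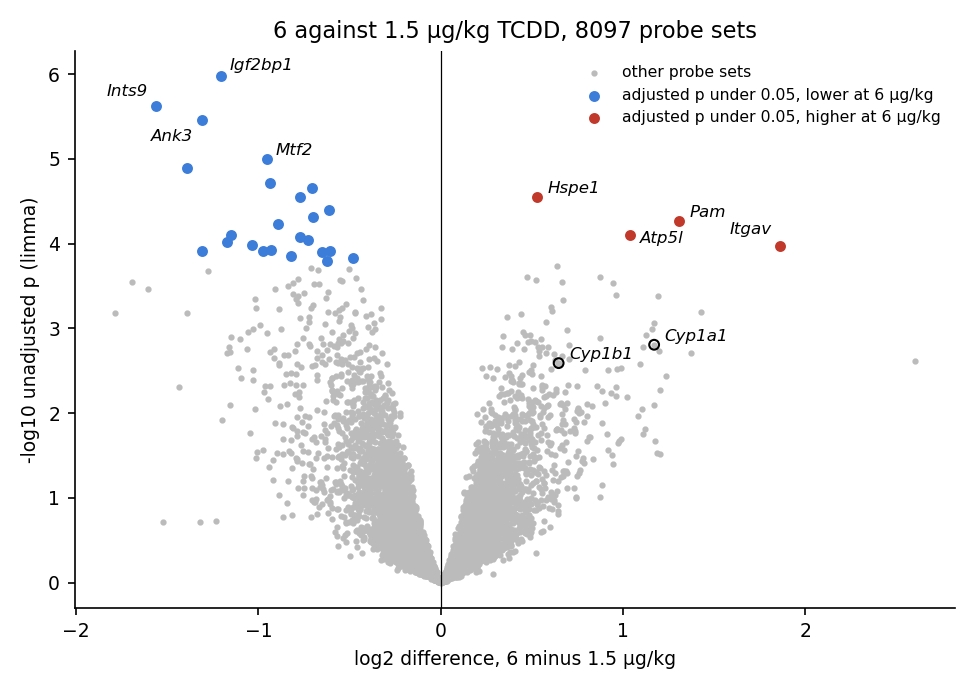
Each point is 1 of 8097 probe sets, with the log2 difference (6 minus 1.5 µg/kg) on the horizontal axis and −log10 of the unadjusted limma p on the vertical axis. Coloured points are the 24 lower and 4 higher probe sets past the adjusted threshold, and open rings are Cyp1a1 and Cyp1b1, which did not reach it.

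The falls with the smallest p were Igf2bp1, Ints9 and Ank3. Igf2bp1 (chromosome 11, 95957163 to 96005944), a fetal RNA-binding protein that binds Igf2 and other transcripts, gave 1029.5, 951.0, 718.7 and 962.3 at 1.5 µg/kg and 380.8, 412.1, 303.2 and 415.2 at 6 µg/kg. The lowest array at 1.5 µg/kg was far above the highest at 6 µg/kg. It fell by 1.21 with a standard error of 0.18 (95% interval −1.58 to −0.83; limma adjusted p = 0.00848), 2.31-fold on that scale. Ints9 (chromosome 14, 64950045 to 65039835), a subunit of the Integrator complex that trims small nuclear RNAs, gave 179.5, 180.9, 206.4 and 261.5 at 1.5 µg/kg. At 6 µg/kg its signals were 101.2, 57.1, 25.2 and 28.7, so 3 of the 4 lay under 60. The fall was −1.56 with a standard error of 0.25 (adjusted p = 0.00941). Ank3 (chromosome 10, 69533486 to 70027436), ankyrin-G, which ties membrane proteins to the spectrin skeleton, went from 967.8, 1056.0, 902.7 and 1022.6 to 376.9, 325.0, 364.6 and 456.7. Here too the groups stood well apart, with a difference of −1.31 (standard error 0.21; adjusted p = 0.00941). A brighter Ank3 probe set was at 0.20, opposite to this fall.

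Carriers and enzymes were also among the falls. Slc29a2, a nucleoside transporter, averaged 253 ± 30.9 at 1.5 µg/kg and 83.5 ± 46.3 at 6 µg/kg (−1.39, adjusted p = 0.0206). Slc6a6, the taurine transporter, gave 2421.9, 2537.7, 1558.3 and 1955.8 at 1.5 µg/kg against 1061.0, 929.4, 1133.3 and 895.7 at 6 µg/kg (−1.03, adjusted p = 0.0408). Taurine is abundant in heart muscle, and every 6 µg/kg array lay below the lowest 1.5 µg/kg array for its carrier. Pmm1, a phosphomannomutase of glycoprotein synthesis, averaged 207 ± 53.3 and 64.1 ± 19.6 (−1.31, adjusted p = 0.0408). Mark2, a kinase that loosens proteins from microtubules, averaged 339 ± 132 and 129 ± 15.3 (−1.15, adjusted p = 0.0408). Array 1 of 1.5 µg/kg carried the highest Mark2 signal, 526.4, beside 241.2 to 336.5 on the others.

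Regulators of chromatin and signalling fell as well. Mtf2, a Polycomb-like protein that guides PRC2 to chromatin, gave 829.0, 631.8, 492.4 and 644.1 at 1.5 µg/kg and 361.3, 347.8, 340.6 and 226.7 at 6 µg/kg (−0.95, adjusted p = 0.0205). Pias3, a SUMO ligase that restrains STAT3, averaged 408 ± 92.7 and 196 ± 31.4 (−0.94, adjusted p = 0.0255). Ptprs, a receptor tyrosine phosphatase, averaged 1315 ± 339 and 662 ± 102 (−0.93, adjusted p = 0.0408). For Mtf2 and Pias3 the 6 µg/kg mean lay within 20 signal units of the control mean (335 ± 59.9 and 215 ± 42.2, n = 8), and the 1.5 µg/kg mean was the one that stood apart. Sh3bgr, a small protein abundant in heart and skeletal muscle, averaged 1589 ± 324 at 1.5 µg/kg, 848 ± 213 at 6 µg/kg and 745 ± 145 in controls (−0.89, adjusted p = 0.037). Its 6 µg/kg mean thus lay above the control mean, where those of Mtf2 and Pias3 lay below. A brighter Sh3bgr probe set was at 0.03. Mtf2, Pias3, Sh3bgr and Ints9 are among the genes that earlier comparisons of these same arrays with controls had called, so their place here is not independent of those calls.

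Matrix and lysosomal genes were among the remaining falls, named here after their values were seen unless on a gene list. Col4a5 (chromosome X, 141475370 to 141689236), a collagen chain of basement membranes, gave 675.2, 559.3, 692.8 and 569.8 at 1.5 µg/kg and 431.2, 406.6, 359.9 and 343.8 at 6 µg/kg (−0.65, adjusted p = 0.0408). Col18a1, whose protein yields endostatin, averaged 1100 ± 150 and 660 ± 46.2 (−0.70, adjusted p = 0.0352), and P3h3, a collagen prolyl hydroxylase, averaged 739 ± 66.6 and 440 ± 39.8 (−0.71, adjusted p = 0.0255). All 3 act in or on collagens. None of their 6 µg/kg arrays reached the lowest 1.5 µg/kg array, which held for all 24 falls and is not particular to them. Tfeb, the transcription factor that drives lysosomal genes, averaged 174 ± 9.1 and 87.3 ± 28.1 (−0.82, adjusted p = 0.043). Clcn7, the lysosomal chloride transporter, averaged 634 ± 55.8 and 446 ± 53.3 (−0.48, adjusted p = 0.0446). Tnpo3, which imports splicing factors, fell by 0.77 and Pbx3, a homeodomain factor, by 0.61 (adjusted p = 0.0255 and 0.0322). Zranb1, Tcf25, Csf2ra and Myoz1 fell by 0.73, 0.77, 0.61 and 0.62 (adjusted p between 0.0408 and 0.046). Myoz1 encodes a Z-disc protein of muscle that binds calcineurin. The last 2 falls had no single gene symbol. The probe set with several symbols averaged 834 ± 63.4 and 359 ± 91.9, and the one with none averaged 1309 ± 77.9 and 651 ± 47.5.

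The 4 rises were smaller in number and mostly dim. Hspe1 (chromosome 1, 55088148 to 55091317), the mitochondrial co-chaperonin, gave 2383.3, 2252.2, 2362.4 and 2882.5 at 1.5 µg/kg and 3487.2, 3555.4, 3866.4 and 3339.9 at 6 µg/kg (0.53, adjusted p = 0.0255). Its controls lay between, at 3177 ± 354 (n = 8). Pam, which amidates peptide hormones and is abundant in the atrium, gave 128.8, 139.0, 55.2 and 146.5 against 244.0, 283.2, 404.4 and 391.4 (1.31, adjusted p = 0.0368). Itgav, the alpha-v integrin, gave 49.6, 41.9, 43.1 and 131.6 against 321.2, 232.1, 285.6 and 405.0 (1.86, adjusted p = 0.0408), while its brighter probe set was at −0.10. Array 4 of 1.5 µg/kg was the high one for Itgav, and array 3 the low one for Pam. Atp5l, an ATP synthase subunit, averaged 95.9 ± 13.2 and 233 ± 48.0 (1.04, adjusted p = 0.0408) on a probe set of low signal, while its brighter probe set was at 0.06.

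The next genes by p among those higher at 6 µg/kg did not pass the threshold. Fdps, which makes farnesyl diphosphate for sterols and prenyl groups, gave 715 ± 65.1 and 1142 ± 217 (0.64, adjusted p = 0.0509). Ptgds, a prostaglandin D synthase, gave 1110 ± 304 and 2146 ± 263 (0.96, adjusted p = 0.0602). Tomm34, Tuba4a, Vamp8 and Iglc1 had differences of 0.47, 0.52, 0.66 and 0.95, each with an adjusted p of 0.0529. None of these 6, which were picked by p, overlapped between the groups, where 3.59% of all 8097 probe sets were higher without overlap.

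Several of the called genes are measured by more than 1 probe set, and these did not all move alike. Of the 26 called genes with 1 symbol, 13 had another probe set that passed the filter, 18 in all. The second probe sets had the same sign in 14 of 18 and passed the threshold in none. For Mark2 they were at −0.78 (adjusted p = 0.0529) and −0.60, and for Pbx3 at −0.30 and −0.49. Ank3 was at 0.20 on its other probe set, Sh3bgr at 0.03, Clcn7 at 0.28 and Itgav at −0.10, each opposite to the call. By mean signal over all arrays, that other probe set was brighter than the called one for Itgav (2374 against 183), Sh3bgr (7728 against 962) and Ank3 (894 against 697). For Clcn7 it was dimmer (191 against 496). The second Mtf2 probe set was at −0.02, with a positive sign under quantile normalization, and both other Pias3 probe sets were within 0.14 of 0. The positions of the probes within these genes were not used here.

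Set against the other groups, the called probe sets at 3 µg/kg resembled 1.5 more than 6 µg/kg, and controls mostly lay between. The mean at 3 µg/kg lay between the other doses for all 28 called probe sets (45.1% of all 8097) and was nearer to 1.5 µg/kg for 24 of them (61.4% of all). The 6 and 3 µg/kg arrays did not overlap for 23. Yet 27 of the 28 had a control mean between 1.5 and 6 µg/kg (44.9% of all). Over the 24 falls the median difference from controls was 0.50 at 1.5 µg/kg and −0.36 at 6 µg/kg. Of the 28, 6 had all 1.5 µg/kg arrays above all 8 controls and 1 had them below, while 1 had all 6 µg/kg arrays above and 1 below. No share over all 8097 probe sets was counted for these separations from 3 µg/kg and from controls. The 28 were chosen for their difference between 6 and 1.5 µg/kg. These contrasts share arrays, so they place the levels and are not further tests.

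**Figure D3:**
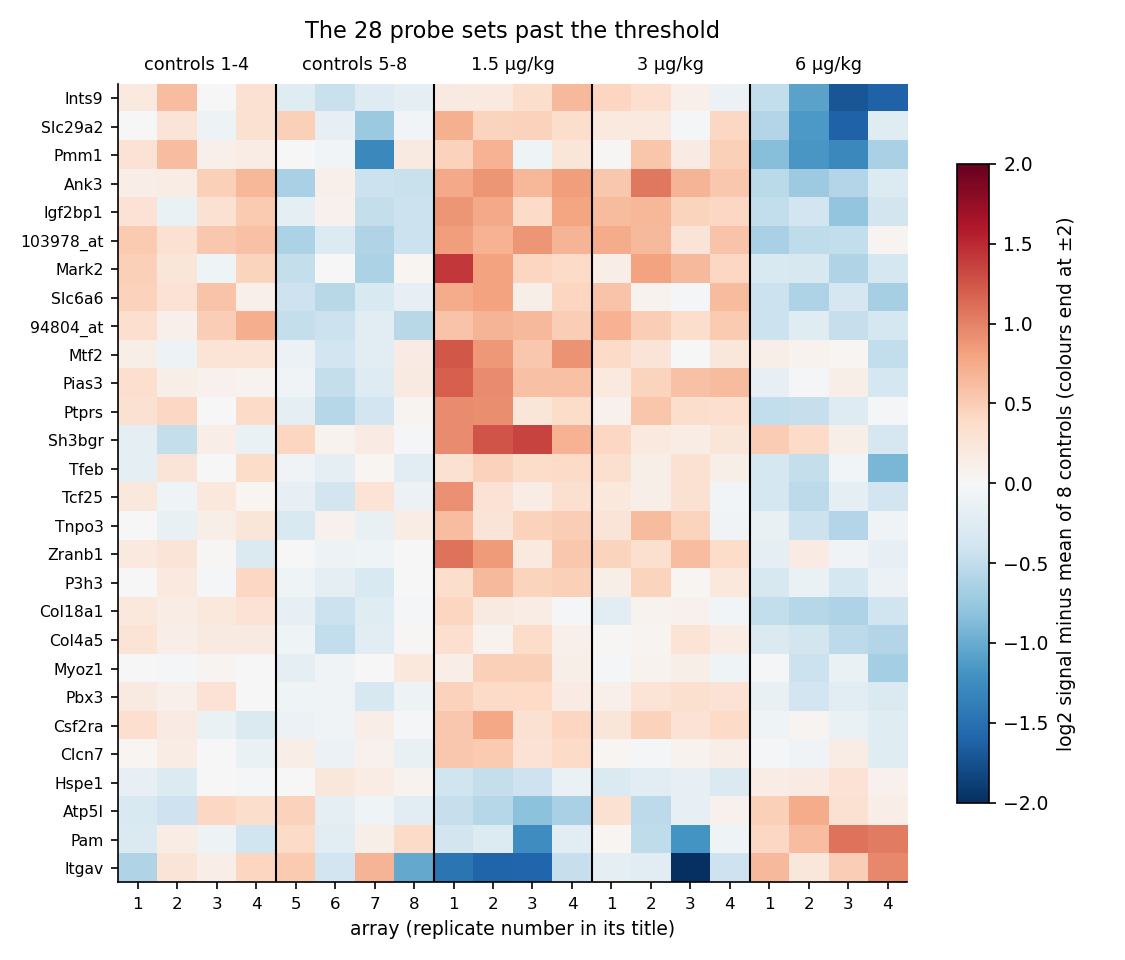
Log2 signal minus the mean of the 8 controls for the 28 called probe sets (rows, ordered by difference) on all 20 arrays (columns, by group and replicate number). In all 24 rows of falls the 1.5 µg/kg mean is above the control mean, and in 23 the 6 µg/kg mean is below it (Sh3bgr is the exception), though single arrays differ; controls 5 to 8 are bluer than controls 1 to 4 in most of those rows.

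The controls themselves differed in the same direction. Their titles number them 1 to 8, and the mean of 5 to 8 minus that of 1 to 4, which uses no array of the 6 and 1.5 µg/kg groups, had the sign of the 6 minus 1.5 µg/kg difference for 25 of the 28 called probe sets, where 64.3% of all 8097 did. Slc6a6 averaged 1869 in controls 1 to 4 and 1121 in controls 5 to 8, Ank3 734 and 441, and the probe set without a symbol 1161 and 633. Sh3bgr, Itgav and Atp5l were the 3 with the opposite sign. Across the 8097 probe sets the 2 differences correlated with Pearson r = 0.398 and Spearman rho = 0.395, a description across probe sets, which are not independent replicates. The labels tie no batch to these numbers, and what separates the control arrays was not tested.

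**Figure D4:**
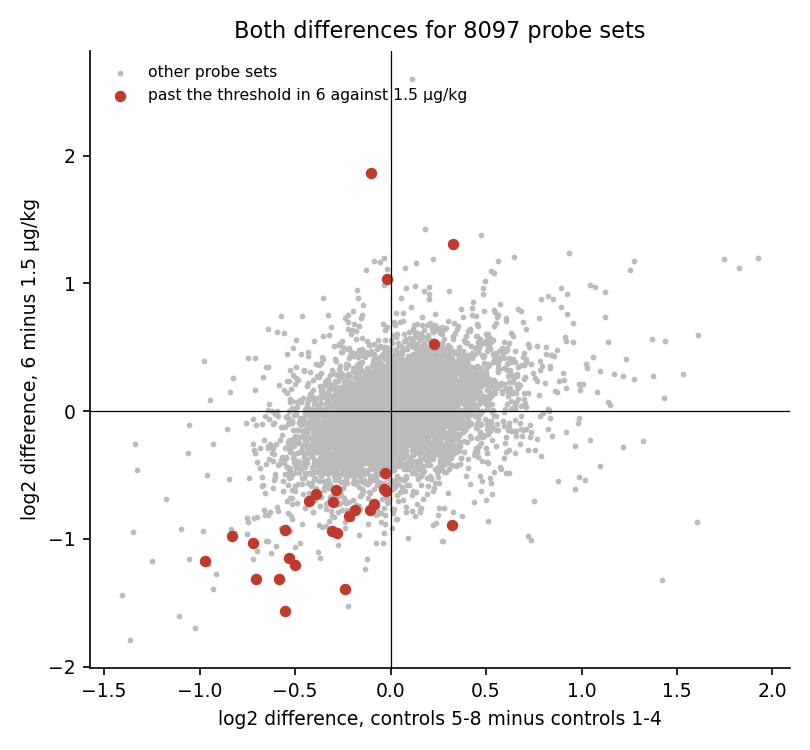
Log2 difference of 6 minus 1.5 µg/kg (vertical) against controls 5 to 8 minus controls 1 to 4 (horizontal) for 8097 probe sets, with the 28 called ones in red. Most red points lie in the lower left part, where both differences are negative.

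A measure of RNA length was mostly higher at 6 than at 1.5 µg/kg, with overlap. The log2 ratio of 3′ to 5′ signal of the Gapdh and β-actin control probe sets was −0.034 to 0.073 at 1.5 µg/kg and 0.057 to 0.16 at 6 µg/kg. At 3 µg/kg it was 0.001 to 0.128. In controls 1 to 4 it was 0.022 to 0.106 and in controls 5 to 8 it was 0.052 to 0.299, so controls did not lie below the 1.5 µg/kg arrays. With that ratio as a covariate, limma called 0 probe sets (smallest adjusted p = 0.0555; 1140 at an unadjusted p under 0.05). All 28 kept their sign, and the median of the falls was −0.86 in place of −0.91. Single arrays mattered as much: without array 1 or 2 of 1.5 µg/kg 3 and 2 probe sets were called, and without arrays 1, 2 or 3 of 6 µg/kg 12, 2 and 6. Leaving out array 1 or 2 of 3 µg/kg gave 15 each, leaving out control 2, 3 or 6 gave 48, 47 and 71, and the other 10 omissions gave 20 to 39. Igf2bp1 and Ints9 passed in all 20 omissions.

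Gene groups showed how broad the shifts were, since few single genes passed. Lists of genes by function were described by their counts and median, with the brightest probe set of each gene. In whole-heart RNA, fewer cells of a type and less RNA per cell cannot be told apart. As background, 6.35% of 6099 genes had an unadjusted limma p under 0.05 and were higher at 6 µg/kg, 9% were lower, and 3.34% and 5.35% did not overlap in those directions. Lower differences of any size made up 50.6%, and 0.0328% and 0.246% passed the adjusted threshold higher and lower.

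Matrix and basement membrane genes leaned lower at 6 µg/kg. Of 40 structural matrix genes 27 were lower, 10 of them at an unadjusted p under 0.05, with a median of −0.13. Col6a2, a collagen VI chain, gave 3325 ± 496 at 1.5 µg/kg and 2197 ± 74.6 at 6 µg/kg (−0.58, adjusted p = 0.0677). Tnxb, the matrix protein tenascin-X, gave 1147 ± 197 and 577 ± 103 (−0.96, adjusted p = 0.0836). Their arrays did not overlap, as was so for 5 of the 40. Of 15 basement membrane genes 12 were lower, with a median of −0.18, and Col4a5 was the 1 that passed. Hspg2, which encodes perlecan, gave 4161 ± 1087 and 2377 ± 496 (−0.78, adjusted p = 0.0647), and Nid2, nidogen, gave 889 ± 69.1 and 673 ± 46.1 (−0.38). Averaged over the list, centred log2 signals were −0.02 to 0.16 at 1.5 µg/kg and −0.13 to −0.06 at 6 µg/kg, with no overlap. In controls they ran from −0.17 to 0.16, across both dose groups. Such list means also separated for smooth muscle, stress, chaperone, ribosomal protein and neural genes. In controls 5 to 8 minus 1 to 4 the basement membrane median was −0.15 and the matrix median −0.05.

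Smooth muscle, epicardial and growth factor genes leaned the same way. Of 11 smooth muscle genes 9 were lower (median −0.16), among them Smtn at 514 ± 110 and 281 ± 129 (−0.91, adjusted p = 0.0929) and Cnn1, calponin, at 1093 ± 68.5 and 760 ± 221 (−0.55). The list's mean was 0.02 to 0.19 at 1.5 µg/kg, −0.14 to −0.07 at 6 µg/kg and −0.10 to 0.17 in controls. Acta2, the actin of smooth muscle and of fetal heart muscle, was at −0.01. Of 17 fibroblast and epicardial genes 14 were lower (median −0.14), with the epicardial markers Wt1 at −0.38 and Msln at −0.37. Of 23 TGF-β and BMP genes 17 were lower (median −0.15), led by the ligands Tgfb3 at −0.49 and Tgfb2 at −0.55 (adjusted p = 0.133 and 0.144). Of 10 insulin-like growth factor genes 8 were lower, Igf2bp1 past the threshold and the receptor Igf1r at 1988 ± 363 and 1392 ± 441 (−0.54, adjusted p = 0.187). The median of that list was −0.11, and in controls 5 to 8 minus 1 to 4 it was −0.12, also with 8 of 10 lower. The medians of that control difference were 0.05 for smooth muscle, −0.08 for fibroblast and epicardial and −0.07 for TGF-β and BMP genes.

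Cardiac transcription factors leaned lower, by an amount that moved with single arrays. Of 13 measured, 10 were lower, with a median of −0.24. Mef2a, a MADS-box factor of muscle genes, gave 5160.2, 3564.2, 3509.0 and 3299.9 at 1.5 µg/kg and 2348.7, 2277.1, 2226.1 and 1839.6 at 6 µg/kg (−0.81, adjusted p = 0.0595). Gata6 gave 3449 ± 552 and 2551 ± 280 (−0.42, adjusted p = 0.111), and Tbx2 gave 364 ± 77.8 and 244 ± 55.5 (−0.52, adjusted p = 0.215). None of these 3, which were picked by the smallest p in the list, overlapped between the groups. Of the 13, 4 were lower without overlap, where 5.35% of all 6099 genes were. Without array 4 of 6 µg/kg the median was −0.14, and without array 2 of 1.5 µg/kg it was −0.11. The retinoid genes Rara (−0.63) and Aldh1a2 (−0.77) were lower without passing, and their list of 6 had a median of −0.40 that was 0.01 over all its genes without the filter.

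Contractile, mitochondrial and ribosomal genes leaned higher, by an amount that depended on the normalization. Of 49 respiratory chain and TCA cycle genes 39 were higher at 6 µg/kg, 18 at an unadjusted p under 0.05 and 7 without overlap, with a median of 0.17. Atp5a1, the ATP synthase α subunit, gave 12175 ± 699 and 14252 ± 910 (0.23, adjusted p = 0.111), and Ndufv2, a complex I subunit, gave 6730 ± 151 and 8012 ± 209 (0.25, adjusted p = 0.119). Of 24 contractile genes 21 were higher (median 0.11), with creatine kinase Ckm at 0.31 (adjusted p = 0.112) and the α-myosin Myh6 at 0.16 (adjusted p = 0.438). Of 22 cytoplasmic ribosomal protein genes 21 were higher (median 0.10), led by Rpl37a with 3862 ± 453 and 5295 ± 617 (0.45, adjusted p = 0.0835). Quantile normalization reduced these medians to 0.08, 0.02 and 0.03, so little of the contractile and ribosomal shift remained. Without array 3 of 1.5 µg/kg they were 0.11, 0.03 and 0.06. Of 25 genes of fatty acid uptake and oxidation 18 were higher (median 0.13), with Lpl at 0.38, and of 32 proteasome genes 24 were higher (median 0.12).

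**Figure D5:**
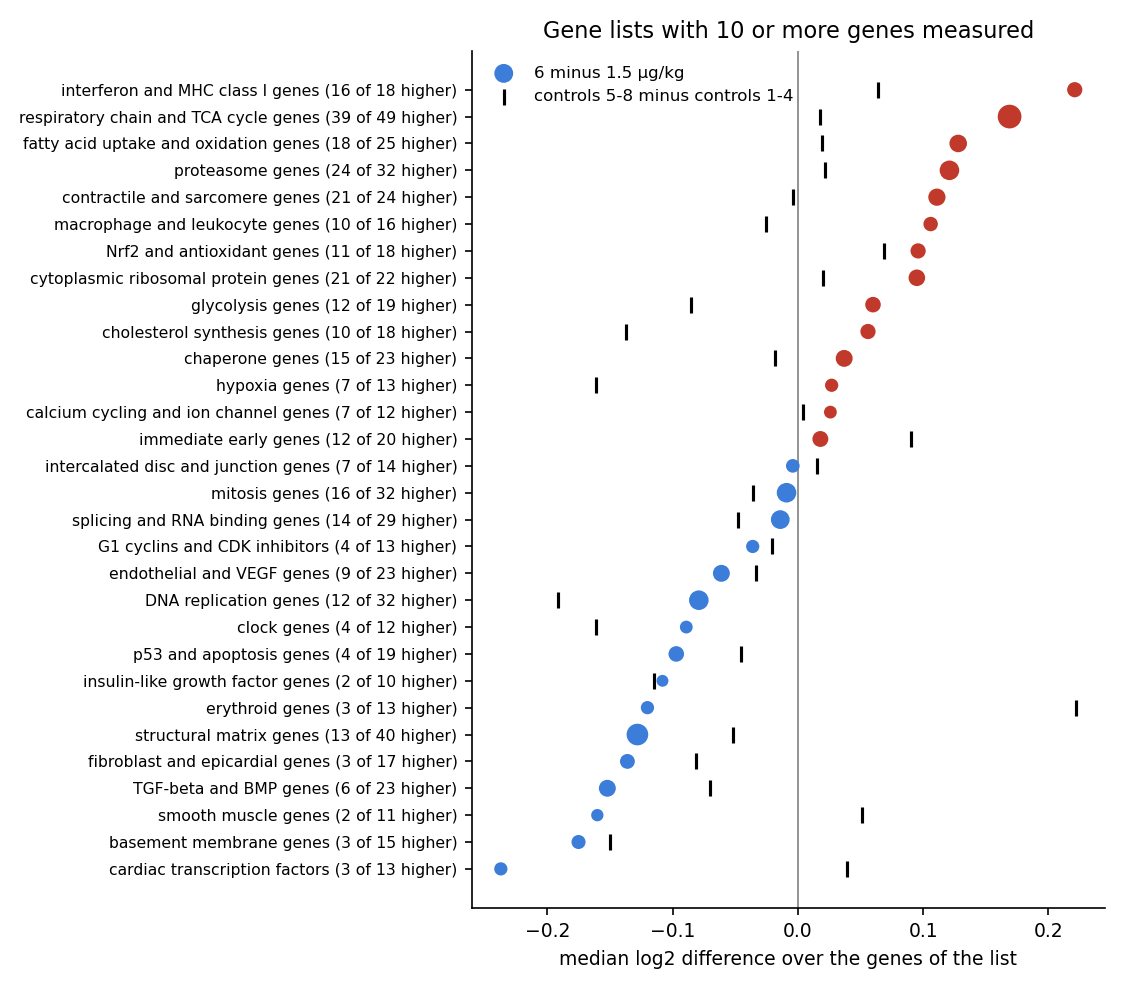
Median log2 difference, 6 minus 1.5 µg/kg, of each gene list with 10 or more genes measured (circles, area by number of genes, red above and blue below 0), with the median of controls 5 to 8 minus 1 to 4 as a black tick. Interferon and MHC class I genes had the highest median of these lists (0.22) and cardiac transcription factors the lowest (−0.24).

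Interferon and MHC class I genes were higher in 16 of 18, with a median of 0.22, 5 at an unadjusted p under 0.05. Tap1, the peptide transporter for MHC class I, gave means of 135 and 189 (0.40, adjusted p = 0.163) without overlap. Gbp3 was at 0.56 and Psmb8, an immunoproteasome subunit, at 0.57 (adjusted p = 0.172 and 0.2). Macrophage genes were higher in 10 of 16 (median 0.11). Among the macrophage markers C1qa was at 0.13, C1qb at 0.08 and C1qc at −0.13. Neutrophil and myeloid genes were higher in 3 of 7 and lower in 4, with a median of −0.16. Among them S100a8 was at 301.5 to 336.8 on the 1.5 µg/kg arrays and 369.6 to 458.3 on the 6 µg/kg arrays, while Camp was at −0.22.

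Cell cycle and endothelial genes were mixed. Mitosis genes were split 16 to 16 with a median of −0.01, and DNA replication genes were lower in 20 of 32 (median −0.08). Ccnd2, cyclin D2, gave 1017 ± 384 and 529 ± 103 (−0.85, adjusted p = 0.119). Endothelial genes were lower in 14 of 23, with Pecam1 at 101.1, 158.5, 272.5 and 173.0 against 382.4, 525.1, 377.2 and 346.7 (1.12, adjusted p = 0.0859). Nos3, endothelial nitric oxide synthase, pointed the other way at 665 ± 35.2 and 505 ± 86.7 (−0.39, adjusted p = 0.129), as did Kdr, a VEGF receptor (−0.43). Chaperones were higher in 15 of 23 (median 0.04), with Hspe1 as the 1 that passed.

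Natriuretic peptide and stress genes were higher at 6 µg/kg in 5 of 5, with a median of 0.16 (0.14 in controls 5 to 8 minus 1 to 4), 2 at an unadjusted p under 0.05 and 1, Ankrd1, without overlap. None passed the adjusted threshold. Nppa, atrial natriuretic peptide, averaged 5456 ± 558 at 1.5 µg/kg and 5503 ± 542 at 6 µg/kg (0.01, 95% interval −0.21 to 0.24), with a sign that turned under quantile normalization. Myh7, the β-myosin, was at 0.06 (95% interval −0.15 to 0.26), and likewise at −0.06 after quantile normalization. Nppb, B-type natriuretic peptide, gave 4552.0, 4791.8, 4662.7 and 4383.8 at 1.5 µg/kg and 4589.6, 4739.1, 5866.9 and 8793.6 at 6 µg/kg (0.33, adjusted p = 0.283). Arrays 3 and 4 of 6 µg/kg were the high ones, and the other 2 lay within the 1.5 µg/kg range. Ankrd1, a stress-responsive muscle repeat protein, averaged 9118 ± 468 and 10678 ± 651 (0.23, adjusted p = 0.256).

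Of the genes that earlier comparisons of these arrays with controls had called, the rest did not pass here. Jup, plakoglobin of the desmosome, was at −0.63 (adjusted p = 0.107), and the 2 Cryl1 probe sets were at −0.88 and −0.28. Plac8 was at 0.50 (adjusted p = 0.165), the 2 Rae1 probe sets at −0.42 and −0.08, Cd74 at 0.19 and Cma1 at −0.20.

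The tissue matched its label: all 8 heart muscle markers passed the filter in these arrays, with troponin Tnnt2 at 15189.7 to 20809.9. Array medians were 183 to 210 over the 8 arrays, and arrays of the same dose correlated at 0.942 to 0.976, against 0.941 to 0.966 between the doses. Markers of neighbouring tissue varied within both groups. Sftpc of lung epithelium ranged from 350.4 to 3076.1 at 1.5 µg/kg and from 134 to 2366.8 at 6 µg/kg, and albumin from 465.5 to 2147 and from 290.3 to 970.5. Lung genes were lower at 6 µg/kg in 4 of 6 and liver genes in 4 of 8, none at an unadjusted p under 0.05. The mast cell protease Mcpt4 (means of 7.20 and 8.07), the T cell gene Cd3e (24.6 to 36.0) and the neutrophil gene Ngp (39.5 to 52.7) stayed under the filter. Other mast cell markers passed it, with means at 1.5 and 6 µg/kg of 227 and 194 for Cma1, 130 and 130 for Cpa3 and 406 and 436 for Tpsb2. So did the neutrophil markers S100a8 (317 and 396), S100a9 (148 and 226) and Camp (279 and 235). Mast cell genes were higher in 3 of 8 and lower in 5 (median −0.14). Of this list Mcpt1 had the smallest p, with 28.1 to 46.5 at 1.5 µg/kg and 87.7 to 112.1 at 6 µg/kg (0.97, limma adjusted p = 0.111). Its control mean was 102. Mcpt1 was the 1 gene of the 8 higher without overlap, and Gata2 (−0.21) the 1 lower, where 3.34% and 5.35% of all genes were. Lymphoid and thymus genes were higher in 3 of 7 and lower in 4 (median −0.08), with Igll1 at 0.33 and Cd4 at 0.43. Rag1, a lymphoid recombinase, gave 260.9 to 340.2 at 1.5 µg/kg and 39.4 to 306 at 6 µg/kg. Cidea of brown fat gave 216.6 to 307.1 and 336.3 to 353.1. Brown fat genes were higher in 4 of 7 and lower in 3 (median 0.33), with Ppargc1a at −0.42. The brown fat markers Ucp1 and Adipoq stayed under the filter. What part these cells have in the differences above was not tested. The number of arrays limits the precision of every value.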

How the data were processed

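Signal values were deposited as linear intensity from MAS5, per the submitters' processing notes (version not given in the sources used here). Per the labels' protocols, Trizol was used for total RNA and labelled cRNA was made through cDNA. Deposited 2% trimmed means were 500.28 to 500.341. Each of the 20 arrays was scaled to 500 and taken as log2(signal + 32). Of 12488 probe sets, 66 AFFX controls were left out. The 8097 with at least 4 arrays at or above their own 40th percentile were kept; 6099 genes were among them. Of 12422 probe sets 10833 carry 1 symbol in the platform annotation, 396 several and 1193 none. Limma 3.58.1 in R 4.3.3 fitted all 4 groups together (lmFit, contrasts.fit, eBayes with an intensity trend), with two-sided tests, Benjamini-Hochberg adjustment and a threshold of 0.05. The fit was tested on simulated data. Genes below the filter were compared by exact permutation in Python 3.11.15. The 28 calls apart, named genes are up to 10 of the largest differences per direction, filled by the smallest p, the AhR targets, 4 cardiac markers, up to 3 genes per list by p, and genes called against controls. Members, lists and tests were chosen with earlier results of these data known. Alternatives were normalization, pseudocount, filter, covariates, array weights, the replicate number as a block, the arrays in the fit, and leaving out each array. Gene positions are GRCm38.p6 (RefSeq).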

Additional observations from a re-analysis of the deposited data

Results flagged for a closer look

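Single arrays stood apart from the other 3 of their group in 13 of 182 groups of 4 arrays checked by Dixon's criterion for gaps, which by chance marks about 1 in 20. Among called genes, Mtf2 was at 226.7 on array 4 of 6 µg/kg, below 340.6 to 361.3 on the others, and Mark2 at 106.0 on array 3 of 6 µg/kg, below 133.4 to 139.0. Both lay on the side of the fall. Pam was at 55.2 on array 3 of 1.5 µg/kg (others 128.8 to 146.5), and Itgav at 131.6 on array 4 of 1.5 µg/kg (others 41.9 to 49.6). A Cyp1b1 probe set below the filter was at 7.6 on array 2 of 6 µg/kg, beside 0.9 to 1.8.

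Array 4 of 6 µg/kg was set apart in 4 further measures. Its β-actin 3′ to middle log2 ratio was 1.02 (others 0.407 to 0.506). The mean centred log2 signal of cardiac transcription factors was −0.427 (others 0.021 to 0.048), of calcium cycling and ion channel genes −0.237 (0.05 to 0.097) and of intercalated disc and junction genes −0.125 (0.04 to 0.071). The part of this array's RNA in these values was not tested.

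Array 3 of 6 µg/kg had a mitosis gene mean of 0.061, above −0.09 to −0.07. At 1.5 µg/kg, array 4 had an endothelial gene mean of −0.131 (others 0.039 to 0.059), array 3 a ribosomal protein gene mean of −0.225 (others −0.03 to 0.008), and array 1 a 3′ to 5′ log2 ratio of 0.073 (others −0.034 to −0.016).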

How the results depend on the processing

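The count of probe sets past the threshold (28) was the value that depended most on the processing. It was 28 with the signals as deposited, 27 and 30 with pseudocounts of 1 and 100, 34 with a filter at the 60th percentile and 19 without the intensity trend. It was 44 with quantile normalization (10 higher, 34 lower), 9 without a filter, 52 with the 8 arrays alone, 136 with the 12 TCDD arrays, 181 with array weights, and 257 with the β-actin 3′ to middle ratio as a covariate, an alternative chosen after seeing the data. It was 0 with the 3′ to 5′ ratio (1140 at an unadjusted p under 0.05) and 0 against a minimum change of 1.5-fold (36 at an unadjusted p under 0.05). Leaving out each array gave 2 to 71. The count without overlap (715) ranged from 900 to 1359 when 1 of the 8 arrays was left out, since 3 arrays separate from 4 more easily, and was 714 to 878 otherwise.

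With the replicate number as a block the count was 99 (26 higher, 73 lower), 26 of the 28 among them; Tfeb and Clcn7 had limma adjusted p-values of 0.0589 and 0.0527. Arrays with the same number correlated at 0.0972, 0.0538, −0.0477 and 0.17 in their deviations from the group means, and not every array correlated best with its own number, so the numbers are not taken to pair the arrays.

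These differences near 0 turned sign. Xdh was at −0.027 with quantile normalization, Gsta2 at −0.030 there and at −0.024 with the 3′ to 5′ ratio. Myh7 was at −0.058, Nppa at −0.021, the second Mtf2 probe set at 0.015 and the second Sh3bgr probe set at −0.034 with quantile normalization. With array weights Nppa was at −0.000, Mtf2 at 0.066 and Sh3bgr at −0.021, and with the β-actin ratio Nppa was at −0.013 and Mtf2 at 0.016. Cma1 was at 0.061 with the 3′ to 5′ ratio. Leaving out 1 array at a time gave −0.122 to 0.247 for Gsta2, −0.048 to 0.252 for the second Nqo1 probe set, −0.004 to 0.343 for Aldh3a1, −0.073 to 0.125 for Myh7, −0.050 to 0.071 for Nppa, −0.121 to 0.053 for Mtf2 and −0.020 to 0.093 for Sh3bgr. The causes were not tested. Probe sets near background limit what can be said of Ahrr, Cyp1a2, Gsta1 and Xdh.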

Other observations

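Some differences outside the named groups were large without passing the threshold, and were picked for their size after their values were seen. Irs2, an adaptor of insulin receptor signalling, was at −1.69 (limma adjusted p = 0.0529), Ago2, the small RNA effector, at −1.79 (0.0677), Wnk1, a kinase of ion transport, at −1.61 (0.0561) and Pdpk1, a kinase upstream of Akt, at −1.39 (0.0677). Slc6a2, the noradrenaline transporter of sympathetic nerves, was at 1.38 (0.0954).

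Among other lists, neural and Schwann genes were higher in 6 of 8 (median 0.13). Their mean centred log2 signal was −0.18 to −0.02 at 1.5 µg/kg, 0.09 to 0.27 at 6 µg/kg and −0.25 to 0.13 in controls. Th, tyrosine hydroxylase, averaged 129 ± 52.6 and 213 ± 49.1 (SD, n = 4; 0.66, limma adjusted p = 0.206), and Gfap 52.8 ± 16.4 and 150 ± 41.9 (1.09, adjusted p = 0.107). Sox10, a Schwann cell and neural crest factor of the same list, averaged 275 ± 36.6 and 199 ± 45.3 (−0.42, adjusted p = 0.208). Klf5, an immediate early transcription factor, gave 181.9, 291.3, 135.7 and 244.7 at 1.5 µg/kg and 95.7, 96.6, 93.8 and 92.4 at 6 µg/kg (−0.91, adjusted p = 0.0561). H2-DMa, an MHC class II chaperone, averaged 225 ± 117 and 83.7 ± 7.8 (−1.03, adjusted p = 0.0818), while Cd74 of the same list was at 0.19.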
